A study of Mus musculus with 15 samples.

Results

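Immune checkpoint receptors, their ligands and the tryptophan-degrading enzyme Ido1 were followed across the 4 treatment groups of a mouse pancreatic tumor experiment. Of 9 listed genes, namely Pdcd1, Ctla4, Lag3, Havcr2, Tigit, Cd274, Pdcd1lg2, Cd276 and Ido1, 8 had a probe set with exactly 1 gene symbol, among 18193 such genes in all. Each of the 8 had a single such probe set, so no choice between probe sets was needed. Tigit was not analysed here.

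PD-1 (Pdcd1), CTLA-4 (Ctla4), LAG-3 (Lag3) and TIM-3 (Havcr2) are inhibitory receptors that T cells acquire on activation and keep under chronic stimulation, and TIM-3 is also found on macrophages and dendritic cells. PD-L1 (Cd274) and PD-L2 (Pdcd1lg2) are the ligands of PD-1, PD-L1 being inducible by interferon gamma on tumor cells and myeloid cells, and B7-H3 (Cd276) is a related surface protein that many tumor cells carry. IDO1 carries out the first step from tryptophan to kynurenine, which restrains T cells. IDO1 too is a known interferon gamma target in dendritic cells, macrophages and tumor cells.

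Tumors had been grown by subcutaneous injection of PDA30364 cells, a mouse pancreatic ductal adenocarcinoma line, into the flank of C57BL/6-Ly5.1 mice aged 6 to 12 weeks. Each mouse was given vehicle or GDC-0623, which inhibits the kinase MEK (MEKi, 30 mg/kg), every day. An antibody (Ab), either control IgG or the CD40 agonist CD40 mIgG1, was injected on days 3, 5 and 7 of treatment, with a last dose 1 day ahead of analysis. Pieces of the whole tumors were collected on day 26 after inoculation. The groups were vehicle with control IgG (control, n = 4), vehicle with CD40 mIgG1 (CD40 Ab, n = 4), MEKi with control IgG (MEKi, n = 3) and MEKi with CD40 mIgG1 (MEKi/CD40 Ab, n = 4), each array holding 1 tumor. All tumors came from a single cell line, and no tumor-free tissue was on these arrays. Values are log2 signals per probe set after robust multi-array average (RMA), so a difference of 1 is a doubling of the signal. They do not allow the level of a gene to be set against that of another gene.

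Because whole pieces were used, fewer cells of a type and less RNA per cell cannot be told apart. Epithelial tumor markers had mean levels between 11.1 and 12.1 in all 15 arrays, so tumor cell RNA was present throughout. Among the arrays, MEKi replicate 1 stood apart, with B cell markers at 6.92 and skeletal muscle markers at 10.97, each the highest value of the 15 arrays. MEKi/CD40 Ab replicate 2 had the highest mean of T cell reference genes, 7.23, and of NK markers, 5.82. Skeletal muscle markers ranged from 8.31 to 10.18 in MEKi/CD40 Ab, 8.02 to 10.97 in MEKi, 4.53 to 7.41 in control and 4.57 to 6.79 in CD40 Ab tumors, and skin markers from 7.06 to 7.74 in MEKi and up to 6.34 elsewhere. All MEKi/CD40 Ab mice carried animal numbers under 10000 and all MEKi mice numbers from 10000 on, so for these groups series and treatment cannot be told apart. Of the control mice 3 had the lower numbers and of the CD40 Ab mice 2 did. All arrays are named below by group and replicate number.

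Pdcd1 was the receptor with the clearest separation of the MEKi/CD40 Ab tumors. Its level was 4.93, 4.96, 4.66 and 4.92 in the control arrays and 5.16, 4.64, 5.11 and 5.34 in the CD40 Ab arrays. It was 5.07, 4.41 and 4.95 under MEKi and 5.55, 6.45, 5.52 and 6.16 under MEKi/CD40 Ab. All 4 MEKi/CD40 Ab tumors thus lay above all 11 others, with replicates 2 and 4 the highest, while the other 3 groups overlapped. The mean rose from 4.87 ± 0.14 (SD, n = 4) in control to 5.92 ± 0.46 (n = 4) in MEKi/CD40 Ab tumors, a log2 FC of 1.05 ± 0.20 (SE) or 2.07-fold (adjusted p = 0.00737, limma empirical Bayes test). Neither agent alone gave a difference from control that passed, with a log2 FC of -0.06 ± 0.16 for MEKi (adjusted p = 0.844) and of 0.20 ± 0.14 for CD40 Ab (adjusted p = 0.715).

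Directly against the single agents, Pdcd1 was 1.11 ± 0.26 higher than under MEKi (adjusted p = 0.0697) and 0.86 ± 0.22 higher than under CD40 Ab (adjusted p = 0.0648). Both differences were close to the threshold and did not pass it in the fit of the 2 groups alone. When all 15 arrays shared an estimate of the spread, they passed with adjusted p = 0.00766 and 0.0282. The rise over control passed without any single array (log2 FC 0.88 to 1.19) and did not pass with the levels of muscle and skin markers as covariates (0.69, adjusted p = 0.314).

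Ctla4, whose product competes with CD28 for its ligands, had levels of 4.20, 4.55, 4.26 and 4.06 in control and 4.82, 4.69, 4.58 and 4.69 in CD40 Ab tumors. Under MEKi it read 5.39, 4.27 and 4.52 and under MEKi/CD40 Ab 4.59, 5.78, 5.25 and 4.87. CD40 Ab and MEKi/CD40 Ab arrays each lay above all controls, whereas the MEKi arrays overlapped the controls, with replicate 1 the highest of the 3. The log2 FC of MEKi/CD40 Ab over control was 0.86 ± 0.23 (adjusted p = 0.0333), that of CD40 Ab 0.43 ± 0.10 (adjusted p = 0.128) and that of MEKi 0.46 ± 0.25 (adjusted p = 0.257). The first of these no longer passed without control replicate 1, 3 or 4 or MEKi/CD40 Ab replicate 3 (adjusted p from 0.0705 to 0.0868). With the muscle and skin covariates it was 0.23 (adjusted p = 0.779).

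Havcr2 encodes TIM-3, a receptor of T cells and of myeloid cells. It was at 5.10, 4.99, 5.21 and 5.11 in control and at 6.18, 5.80, 5.02 and 5.26 in CD40 Ab tumors. It was at 5.99, 4.86 and 5.77 under MEKi and at 5.78, 5.94, 5.28 and 5.36 under MEKi/CD40 Ab. The controls were tight (SD 0.09), and the treated groups each spanned 0.66 or more. Within CD40 Ab, the mice with numbers under 10000 were replicates 1 and 2, the high arrays. The MEKi/CD40 Ab tumors lay above all controls by a log2 FC of 0.49 ± 0.14 (adjusted p = 0.0473), a call lost without any 1 control array or MEKi/CD40 Ab replicate 1 or 2 (adjusted p from 0.0774 to 0.112). It was also lost with the replicate block (adjusted p = 0.0758), median centring (0.0557), further quantile normalization (0.0599) and the fit of all 15 arrays (0.259). Against CD40 Ab the log2 FC of Havcr2 was 0.03 ± 0.25 (adjusted p = 0.965), and among animal numbers under 10000 alone it was -0.40.

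Lag3, a receptor for MHC class II, varied least among the receptors, between 4.36 and 5.25. The levels were 4.55, 4.66, 4.75 and 4.83 in control, 4.83, 5.04, 4.90 and 5.03 under CD40 Ab, 4.71, 4.36 and 4.76 under MEKi and 5.25, 4.98, 4.81 and 4.90 under MEKi/CD40 Ab. The MEKi/CD40 Ab arrays were all above the MEKi arrays and overlapped control at a single array, replicate 3. The log2 FC over control was 0.29 ± 0.10 for MEKi/CD40 Ab (adjusted p = 0.0941), 0.25 ± 0.08 for CD40 Ab (adjusted p = 0.275) and -0.09 ± 0.12 for MEKi (adjusted p = 0.660), and none passed. Pdcd1, Ctla4 and Lag3 had a mean over the 15 arrays below that of the median probe set, and the deposited table holds no detection calls.

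**Figure D1:**
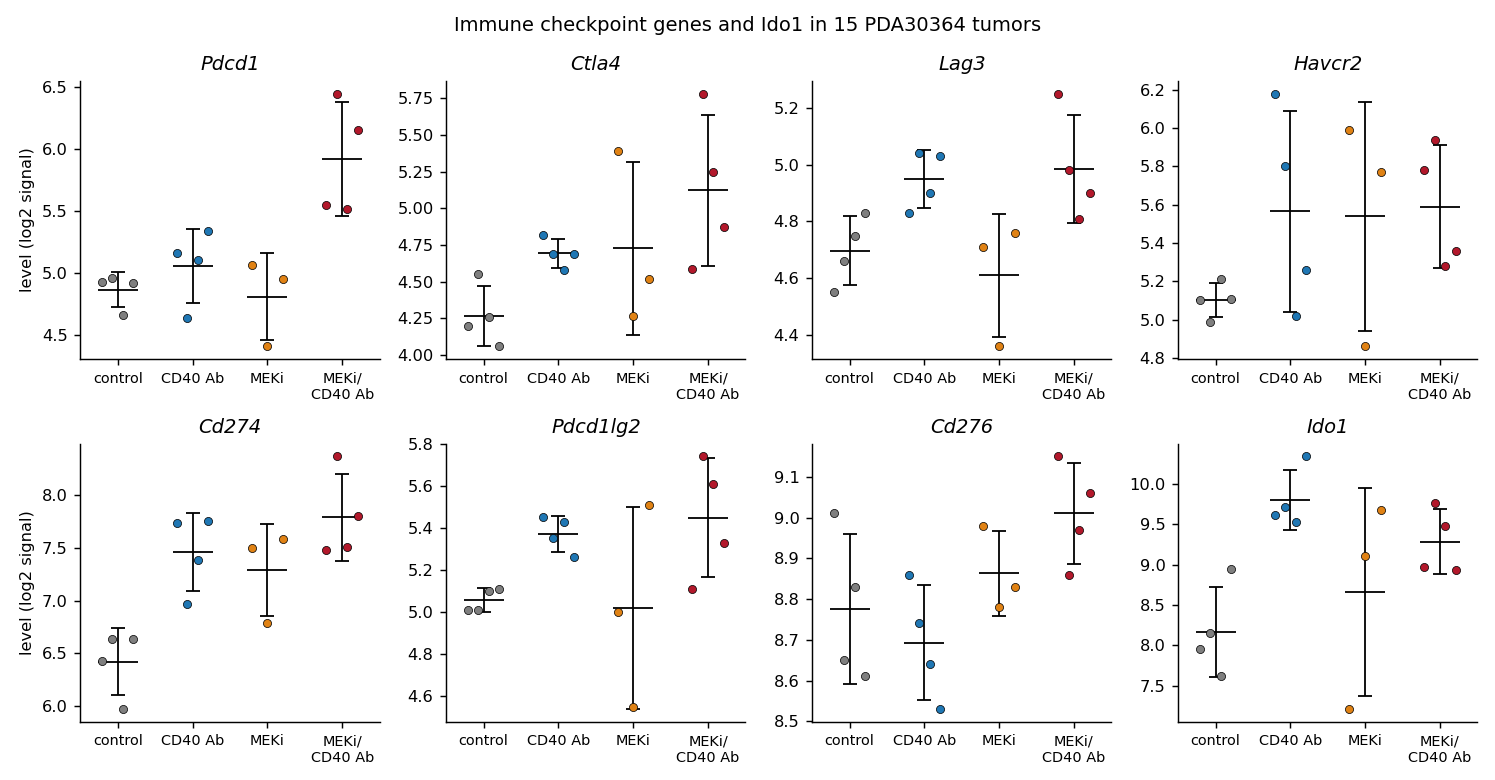
Level (log2 signal, vertical axis, scaled per panel) of the 8 measured genes in each of the 15 tumors, by treatment group. Points are arrays in replicate order from left to right within a group, and bars give the mean ± SD. The 4 MEKi/CD40 Ab points of Pdcd1 lie between 5.52 and 6.45, above all other arrays.

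Among the ligands, Cd274 was higher in each treated group than in control. Control arrays were at 6.43, 6.64, 5.97 and 6.64 and CD40 Ab arrays at 7.74, 6.97, 7.39 and 7.76. MEKi arrays were at 7.50, 6.79 and 7.59 and MEKi/CD40 Ab arrays at 7.48, 8.37, 7.51 and 7.80. The highest control, 6.64, was thus below the lowest treated array, 6.79, and the treated groups overlapped each other. The mean was 6.42 ± 0.32 (SD, n = 4) in control, 7.29 ± 0.44 (n = 3) under MEKi, 7.46 ± 0.37 (n = 4) under CD40 Ab and 7.79 ± 0.41 (n = 4) under MEKi/CD40 Ab.

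Cd274 rose under MEKi/CD40 Ab by a log2 FC of 1.37 ± 0.21 or 2.58-fold (adjusted p = 0.00291) and under MEKi by 0.87 ± 0.23 (adjusted p = 0.0365). The CD40 Ab value, 1.05 ± 0.20, was larger than that of MEKi and missed the threshold (adjusted p = 0.0529). It passed with array weights, with median centring and without dim probe sets (adjusted p from 0.0346 to 0.0440). The MEKi call was lost without any 1 control array or without MEKi replicate 1 or 3 (adjusted p from 0.0567 to 0.116). It was also lost with array weights (adjusted p = 0.0548), the replicate block (0.119) and the animal number series as covariate (log2 FC 0.68, adjusted p = 0.202). Without MEKi replicate 2, the lowest of its group, the value was 1.13 (adjusted p = 0.00969). The MEKi/CD40 Ab tumors exceeded MEKi by 0.50 ± 0.26 (95% interval -0.11 to 1.10) and CD40 Ab by 0.33 ± 0.23 (-0.19 to 0.84), neither passing. With the muscle and skin covariates the log2 FC of Cd274 over control was 1.11 under MEKi/CD40 Ab (adjusted p = 0.160) and 0.97 under MEKi (adjusted p = 0.461).

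Pdcd1lg2, the second PD-1 ligand, lies downstream of Cd274 on chromosome 19, and their annotated starts are 43481 bases apart. Its levels were 5.01, 5.01, 5.10 and 5.11 in control, 5.45, 5.35, 5.43 and 5.26 under CD40 Ab, 5.00, 4.55 and 5.51 under MEKi and 5.11, 5.74, 5.61 and 5.33 under MEKi/CD40 Ab. The CD40 Ab arrays were above every control by a small and even margin, and the MEKi arrays lay on both sides of control. The log2 FC over control was 0.32 ± 0.06 for CD40 Ab (adjusted p = 0.0731), 0.39 ± 0.12 for MEKi/CD40 Ab (adjusted p = 0.0670) and -0.04 ± 0.19 for MEKi (adjusted p = 0.921). The CD40 Ab value passed when genes rather than probe sets were tested, with 1 probe set or the mean of all (adjusted p = 0.0472 and 0.0435), and without dim probe sets (adjusted p = 0.0375). The MEKi/CD40 Ab value passed without replicate 1 of that group (0.50, adjusted p = 0.0141), with array weights (adjusted p = 0.0472) and without dim probe sets (adjusted p = 0.0443).

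The windows around the starts of these neighboring ligand genes are shown because the genes share a locus and differed in the size of their change. They run from 250 bases before to 50 bases after the start in the RefSeq annotation of GRCm38.p6, 5′ to 3′ on the gene's strand. Capitals mark matches to any of 4 patterns searched on both strands. These were GAS (TTC and GAA with any 3 bases between), ISRE (GAAA and GAAA with any 2 bases between), AP-1 (TGANTCA) and NF-kB (GGG and CC with any 5 bases between), none of which contains another.
Cd274, chr19:29367188-29367487, + strand: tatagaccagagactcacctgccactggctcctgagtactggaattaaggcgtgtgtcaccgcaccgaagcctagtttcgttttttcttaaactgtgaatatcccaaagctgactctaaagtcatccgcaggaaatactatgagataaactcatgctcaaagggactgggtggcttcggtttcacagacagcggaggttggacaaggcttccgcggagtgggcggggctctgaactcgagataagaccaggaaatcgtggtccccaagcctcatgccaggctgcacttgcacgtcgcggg
Pdcd1lg2, chr19:29410669-29410968, + strand: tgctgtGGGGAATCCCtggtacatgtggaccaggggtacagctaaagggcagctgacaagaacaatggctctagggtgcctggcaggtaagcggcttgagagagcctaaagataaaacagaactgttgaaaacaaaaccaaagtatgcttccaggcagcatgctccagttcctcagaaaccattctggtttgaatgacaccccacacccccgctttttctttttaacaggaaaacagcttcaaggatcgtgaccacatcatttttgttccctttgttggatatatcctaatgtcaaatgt
The Pdcd1lg2 window held 1 NF-kB match, GGGGAATCCC, which reads as a match on both strands, and the Cd274 window held no match to any of the 4 patterns. NF-kB matches of this loose pattern occur in 51% of 32544 promoter windows of the same length, GAS in 8.33%, ISRE in 3.45% and AP-1 in 7.79%. Of the 9 genes, 7 had a window, and none of the 7 held a GAS or ISRE match. The Havcr2 window held an AP-1 match, TGATTCA, at positions -200 to -194 from the start, and the Cd276 window held 9 NF-kB matches, several overlapping, when a site read on both strands is counted once. Ido1 and Lag3 had no window.

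Cd276, encoding B7-H3, had a narrow range. It was at 9.01, 8.65, 8.83 and 8.61 in control, 8.86, 8.74, 8.64 and 8.53 under CD40 Ab, 8.98, 8.78 and 8.83 under MEKi and 9.15, 8.86, 8.97 and 9.06 under MEKi/CD40 Ab. The groups overlapped throughout, MEKi/CD40 Ab and CD40 Ab meeting at 8.86, and the MEKi/CD40 Ab arrays were in the upper part of the range. The log2 FC was 0.24 ± 0.10 against control (adjusted p = 0.160), 0.32 ± 0.09 against CD40 Ab (adjusted p = 0.0820) and 0.15 ± 0.09 against MEKi (adjusted p = 0.481). Against control, the intervals of the single agents were -0.17 to 0.34 for MEKi and -0.32 to 0.15 for CD40 Ab.

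Ido1 differed from the receptors and ligands in that its highest mean was under CD40 Ab alone. It was at 7.95, 8.15, 7.62 and 8.94 in control and at 9.61, 9.71, 9.53 and 10.34 under CD40 Ab. It was at 7.21, 9.10 and 9.67 under MEKi and at 8.97, 9.76, 9.48 and 8.93 under MEKi/CD40 Ab. Every CD40 Ab array exceeded every control, MEKi/CD40 Ab replicate 4 lay just under control replicate 4, and the MEKi arrays spread from below all controls (replicate 1) to above them. The log2 FC over control was 1.63 ± 0.27 or 3.10-fold for CD40 Ab (adjusted p = 0.0332), 1.12 ± 0.28 or 2.17-fold for MEKi/CD40 Ab (adjusted p = 0.0266) and 0.50 ± 0.55 for MEKi (adjusted p = 0.595).

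Both Ido1 calls changed with single arrays and with the fit. In the fit of all 15 arrays the adjusted p was 0.189 for CD40 Ab and 0.110 for MEKi/CD40 Ab, and with the animal number series as covariate it was 0.326 and 0.0740. With an intensity trend and a robust prior together the CD40 Ab call was also lost (adjusted p = 0.0977). Among single arrays, the call of CD40 Ab was lost without any 1 array of either group (adjusted p from 0.0559 to 0.125) other than control replicate 4, the highest control, without which it was 1.89 (adjusted p = 0.0153). The call of MEKi/CD40 Ab was lost without control replicate 1, 2 or 3 or MEKi/CD40 Ab replicate 2 or 3 (adjusted p from 0.0586 to 0.0776). Without MEKi replicate 1 the MEKi value was 1.22 (adjusted p = 0.0403). MEKi/CD40 Ab tumors were 0.51 ± 0.22 lower than CD40 Ab tumors (log2 FC -0.51, adjusted p = 0.223), with overlapping arrays. With the muscle and skin covariates, that difference was 0.40 in the other direction. Neither call against control passed with these covariates, although the log2 FC was 1.56 for CD40 Ab (adjusted p = 0.178) and 1.96 for MEKi/CD40 Ab (adjusted p = 0.109).

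Counted by comparison, MEKi/CD40 Ab against control had 5 of the 8 genes up, Pdcd1, Ctla4, Havcr2, Cd274 and Ido1, and none down. Over all genes 10.3% were called up and 8.72% down in that comparison. Without overlap between the groups, 4 of the 8 were higher (all of these but Ido1), compared with 12.3% of all genes. The median log2 FC of the 8 was 0.67, while that of all genes was -0.04. With the muscle and skin covariates, fitted to all 15 arrays, none of the 8 passed (adjusted p from 0.109 to 0.888), and 820 of 45037 probe sets did so. Without them 5021 passed in the fit of all 15 arrays and 6450 in that of the 2 groups. Muscle levels were higher in every MEKi-treated array than in any other, so these covariates cannot fully separate muscle content from MEKi treatment. Within the animal numbers under 10000, which leaves 4 MEKi/CD40 Ab and 3 control tumors, Pdcd1, Cd274 and Ido1 passed.

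MEKi against control had 1 of the 8 up, Cd274, where 10.7% of all genes were called up and 10.4% down, and Cd274 was also the only one whose arrays did not overlap control, where 16.4% of all genes were higher in this way. CD40 Ab against control had 1 up, Ido1, where 1.01% of all genes were called up. In 4 of the 8, Cd274, Pdcd1lg2, Ctla4 and Ido1, all CD40 Ab arrays were above all controls, as for 4.69% of all genes. The median log2 FC of the 8 was 0.26 for MEKi and 0.37 for CD40 Ab. These 3 comparisons share the 4 control arrays.

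MEKi/CD40 Ab against MEKi gave none of the 8 in either direction by limma, 4.03% of all genes being called. At an unadjusted p under 0.05 there were 2 of the 8 (Pdcd1 and Lag3), beside 7917 of 45037 probe sets. Those 2 were also higher in every MEKi/CD40 Ab array than in every MEKi array, as were 8.77% of all genes. MEKi/CD40 Ab against CD40 Ab again gave none, 6.22% of all genes being called. At an unadjusted p under 0.05 there were 3 (Pdcd1, Cd276 and Ido1), beside 9762 of 45037 probe sets. Only Pdcd1 was without overlap there, as were 7.26% of all genes. In the fit of all 15 arrays, Pdcd1 passed in both of these comparisons.

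Whether the effect of CD40 Ab differed with MEKi was asked by the interaction, the log2 FC of MEKi/CD40 Ab over MEKi minus that of CD40 Ab over control. None of the 8 passed, 4.56% of all genes being called by limma. Pdcd1 alone of the 8 had an unadjusted p under 0.05, as had 7820 of 45037 probe sets. The Pdcd1 interaction was 0.92 ± 0.31 (adjusted p = 0.129), that of Cd274 -0.55 ± 0.35 (adjusted p = 0.468) and that of Ido1 -1.01 ± 0.63 (adjusted p = 0.449). Without MEKi replicate 1, in which Ido1 was lowest, the Ido1 interaction was -1.73 (adjusted p = 0.0376).

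**Figure D2:**
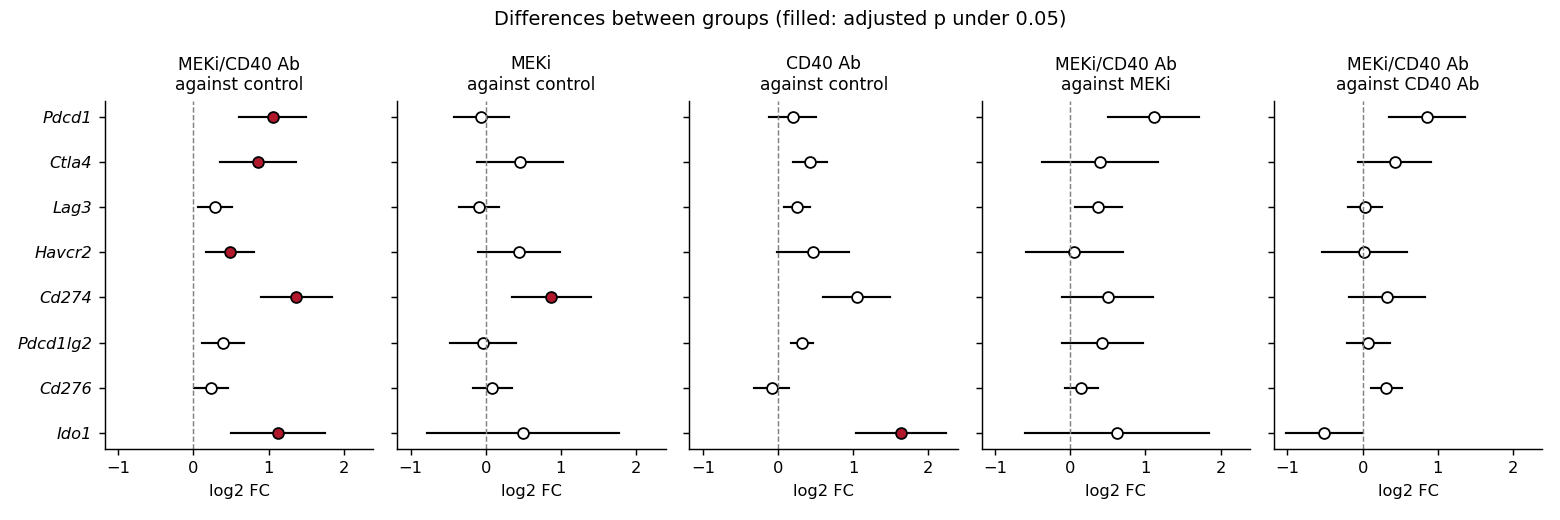
Log2 FC of the 8 genes (horizontal axis) in 5 comparisons, with 95% intervals of limma's moderated fit; filled points passed an adjusted p of 0.05. Pdcd1 and Cd274 reach 1.05 and 1.37 in MEKi/CD40 Ab against control, and Ido1 reaches 1.63 in CD40 Ab against control.

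Pdcd1 and Cd274, a receptor and its ligand, varied together from tumor to tumor within groups. MEKi/CD40 Ab replicates 2 and 4 were highest for both, and CD40 Ab replicate 2, MEKi replicate 2 and control replicate 3 were the lowest of their groups for both. After subtraction of the group means, Pearson's r between them was 0.91 over the 15 arrays, the highest of the 28 pairs among the 8 genes, compared with 0.76 before subtraction. The lowest of the 28 was that of Cd276 with Ido1, -0.64. These values describe 15 arrays that were normalized together and differ in cell content, and no test was made.

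**Figure D3:**
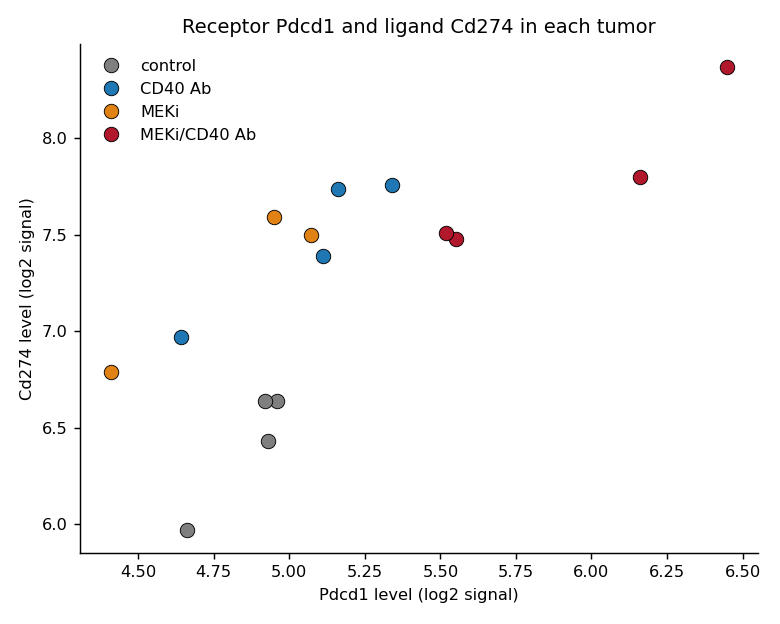
Cd274 level against Pdcd1 level (both log2 signal) in each tumor, colored by group. The 4 MEKi/CD40 Ab tumors lie to the right, at Pdcd1 levels of 5.52 and above, and control tumors lie lowest for Cd274, at 6.64 and below.

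Because these receptors are carried by T cells, their levels were also set relative to T cell genes of the same tumor. TIM-3 (Havcr2) is also found on macrophages and dendritic cells, which this reference does not cover. The mean of 8 measured T cell reference genes (of 10 listed, among them the CD3 subunit genes) ranged from 5.38 to 5.68 in control, 5.86 to 6.27 in CD40 Ab, 5.51 to 6.86 in MEKi and 6.31 to 7.23 in MEKi/CD40 Ab tumors. Of these 8 T cell genes, 7 rose in MEKi/CD40 Ab against control, none in MEKi and 2 in CD40 Ab. The shares of all genes called up were 10.3%, 10.7% and 1.01% in these comparisons. The mean of the T cell genes was highest in MEKi/CD40 Ab tumors, 6.59 compared with 5.50 in control. Under MEKi it was 6.19, while the Pdcd1 and Lag3 signals had a log2 FC of -0.06 and -0.09 there.

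Relative to these genes, Pdcd1 was at -0.49, -0.57, -0.72 and -0.76 in control, at -0.95, -1.22, -1.11 and -0.93 under CD40 Ab, at -1.79, -1.10 and -1.24 under MEKi and at -0.89, -0.78, -0.88 and -0.15 under MEKi/CD40 Ab. Control and MEKi/CD40 Ab tumors thus overlapped, the latter being high at replicate 4, and the single agents were below control in every array. The Pdcd1 signal itself had a log2 FC of 0.20 for CD40 Ab and -0.06 for MEKi against control. The subtracted T cell mean was higher under CD40 Ab (5.86 to 6.27) than in control (5.38 to 5.68), and higher on average under MEKi. A lower relative value thus follows largely from the subtraction and was not tested as a change of Pdcd1 per T cell. The difference between MEKi/CD40 Ab and control was -0.04 (exact permutation p = 0.857). That between CD40 Ab and control was -0.41 (exact p = 0.0286 and 0.143 after adjustment over 20 tests); no lower exact p is possible with 4 arrays a group. The differences involving MEKi were larger, -0.74 for MEKi against control and 0.70 for MEKi/CD40 Ab against MEKi (each exact p = 0.0571, the smallest possible there, adjusted p = 0.163). MEKi/CD40 Ab exceeded CD40 Ab by 0.38 in relative Pdcd1 level (exact p = 0.0286, adjusted p = 0.143), higher in 4 of 4 arrays.

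Relative Lag3 and Havcr2 levels were lower in all 4 MEKi/CD40 Ab than in all 4 control tumors. Lag3 differed by -0.80 and Havcr2 by -0.60 (each exact permutation p = 0.0286, adjusted p = 0.143), although neither gene was lower in signal itself. The T cell mean that was subtracted was itself higher in every MEKi/CD40 Ab tumor (6.31 to 7.23) than in every control (5.38 to 5.68). A gene of unchanged signal would thus also be lower in all 4 tumors and reach this smallest exact p. Lag3 was moreover a dim probe set with a narrow range. The lower relative values follow from the subtraction and were not tested as a change of Lag3 or Havcr2 per T cell. Relative Ctla4 differed by -0.24 (exact p = 0.314). None of the 20 two-sided exact tests passed after adjustment. With 3 MEKi arrays an exact p cannot fall below 0.0571, and an adjusted p under 0.05 would have needed all 12 tests of 4 against 4 arrays at their smallest p, so the adjusted values say little either way.

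**Figure D4:**
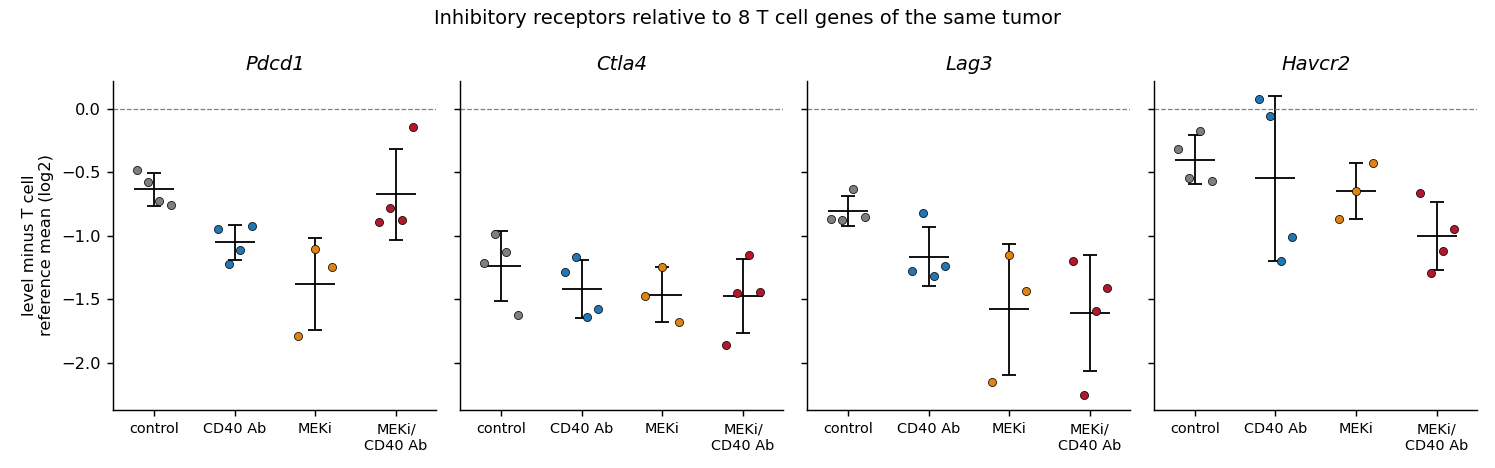
Level of 4 inhibitory receptors minus the mean of 8 T cell reference genes of the same tumor (log2, vertical axis), by group, with mean ± SD. Pdcd1 in MEKi/CD40 Ab tumors overlaps control, whereas Lag3 and Havcr2 lie below control in all 4 MEKi/CD40 Ab tumors. The subtracted mean was itself higher in these 4 tumors than in control, so a gene of unchanged signal would also lie lower.

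Genes of interferon gamma signalling, a known inducer of Cd274 and Ido1, were higher in the same tumors. Of 12 measured, 7 rose in MEKi/CD40 Ab against control, where 10.3% of all genes were called up. The other 5 did not pass, and the median log2 FC of the 12 was 0.85. The 3 with the smallest p were Ciita, the master regulator of MHC class II (1.84 ± 0.15, adjusted p = 0.000162), the transcription factor gene Irf1 (1.26 ± 0.14, adjusted p = 0.000695) and the receptor chain gene Ifngr1 (0.63 ± 0.07, adjusted p = 0.000695). In MEKi against control 4 rose (Irf1, Ciita, Socs1 and Ifng), where 10.7% of all genes were called up. In CD40 Ab against control 4 rose (Irf1, Ifng, Irf8 and Ciita), where that share was 1.01%. The mean level of the 12 ranged from 7.81 to 8.17 in control, 8.40 to 8.72 in CD40 Ab, 8.28 to 8.69 in MEKi and 8.64 to 9.11 in MEKi/CD40 Ab tumors. As for Cd274, no treated tumor overlapped control. Ido1 differed, overlapping control under MEKi and MEKi/CD40 Ab. MEKi replicate 1 had the highest mean of these genes in its group, 8.69, and the lowest Ido1 level of all arrays, 7.21. A part of interferon gamma in the Cd274 or Ido1 values was not tested.

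Other co-inhibitory receptors and ligands were described by a list of 22 measured genes. In MEKi/CD40 Ab against control, where 10.3% of all genes were called up, 10 rose, none fell and 12 did not pass. The median log2 FC of the 22 was 0.30. Sirpa, the inhibitory receptor of myeloid cells (0.94 ± 0.10, adjusted p = 0.000576), had the smallest p, followed by the T cell and NK cell receptor Cd96 (0.94 ± 0.19, adjusted p = 0.0110) and the collagen receptor Lair1 (0.80 ± 0.16, adjusted p = 0.0113). The largest rise of the 22 was that of Ceacam1, an inhibitory adhesion receptor also reported as a TIM-3 ligand (1.60 ± 0.36, adjusted p = 0.0167). Of other ligands of the listed receptors, Lgals9, a ligand of TIM-3, had a value of 0.23 (adjusted p = 0.123), Fgl1, a ligand of LAG-3, 0.12 (adjusted p = 0.499) and Pvr, a ligand of TIGIT, 0.01 (adjusted p = 0.955). Nectin2, a further TIGIT-binding protein, rose by 0.45 ± 0.12 (adjusted p = 0.0396). In MEKi against control 3 rose, Vtcn1 (1.05 ± 0.25, adjusted p = 0.0272), Nectin2 (0.445 ± 0.09, adjusted p = 0.0153) and Cd47 (0.40 ± 0.09, adjusted p = 0.0234). The 1 that fell was Nt5e, the CD73 ectoenzyme (-0.89 ± 0.20, adjusted p = 0.0228). The shares over all genes were 10.7% up and 10.4% down there. In CD40 Ab against control, where 1.01% of all genes were called up, Sirpa alone rose (0.56 ± 0.09, adjusted p = 0.0279).

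Of 15 measured co-stimulatory receptors and ligands, 3 rose in MEKi/CD40 Ab against control and 12 did not pass, with a median of 0.27. The share of all genes called up was 10.3%. The 3 that rose were Cd40 itself (0.81 ± 0.22, adjusted p = 0.0352), the GITR gene Tnfrsf18 (0.89 ± 0.25, adjusted p = 0.0395) and Icos (0.96 ± 0.28, adjusted p = 0.0493). The CTLA-4 ligand genes Cd80 and Cd86 had values of 0.02 (adjusted p = 0.941) and 0.41 (adjusted p = 0.118). In MEKi against control Tnfrsf18 and Cd40 rose, and Tnfrsf9, which encodes 4-1BB, and Cd70 fell. Over all genes 10.7% were called up and 10.4% down in that comparison, shares near those of the 15. In CD40 Ab against control, where 1.01% of all genes were called up, Cd40 alone rose (0.56 ± 0.08, adjusted p = 0.0225).

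Of 14 measured genes around Ido1 in tryptophan metabolism, 1 rose, 2 fell and 11 did not pass in MEKi/CD40 Ab against control, with a median of -0.06. Of all genes, 10.3% were called up and 8.72% down in that comparison. The gene that rose was Wars, the tryptophanyl-tRNA synthetase (0.41 ± 0.07, adjusted p = 0.00461), and those that fell were Ahr, a receptor for kynurenine rather than an enzyme (-0.43 ± 0.07, adjusted p = 0.00276), and Afmid, which acts directly after IDO1 (-0.25 ± 0.07, adjusted p = 0.0478). The alternative first enzymes Ido2 and Tdo2 had values of 0.01 (adjusted p = 0.977) and -0.12 (adjusted p = 0.397). In CD40 Ab against control, where 1.01% of all genes were called up, limma called none of the 14. Of these, 5 had an unadjusted p under 0.05, as had 4524 of 45037 probe sets. Wars had the smallest p there (0.61 ± 0.16, adjusted p = 0.155), and its value in MEKi against control was 0.10 (adjusted p = 0.585). In MEKi against control, where 10.4% of all genes were called down, Ahr (-0.93 ± 0.07, adjusted p = 0.000247) and the amino acid transporter genes Slc3a2 and Slc7a5 fell.

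**Figure D5:**
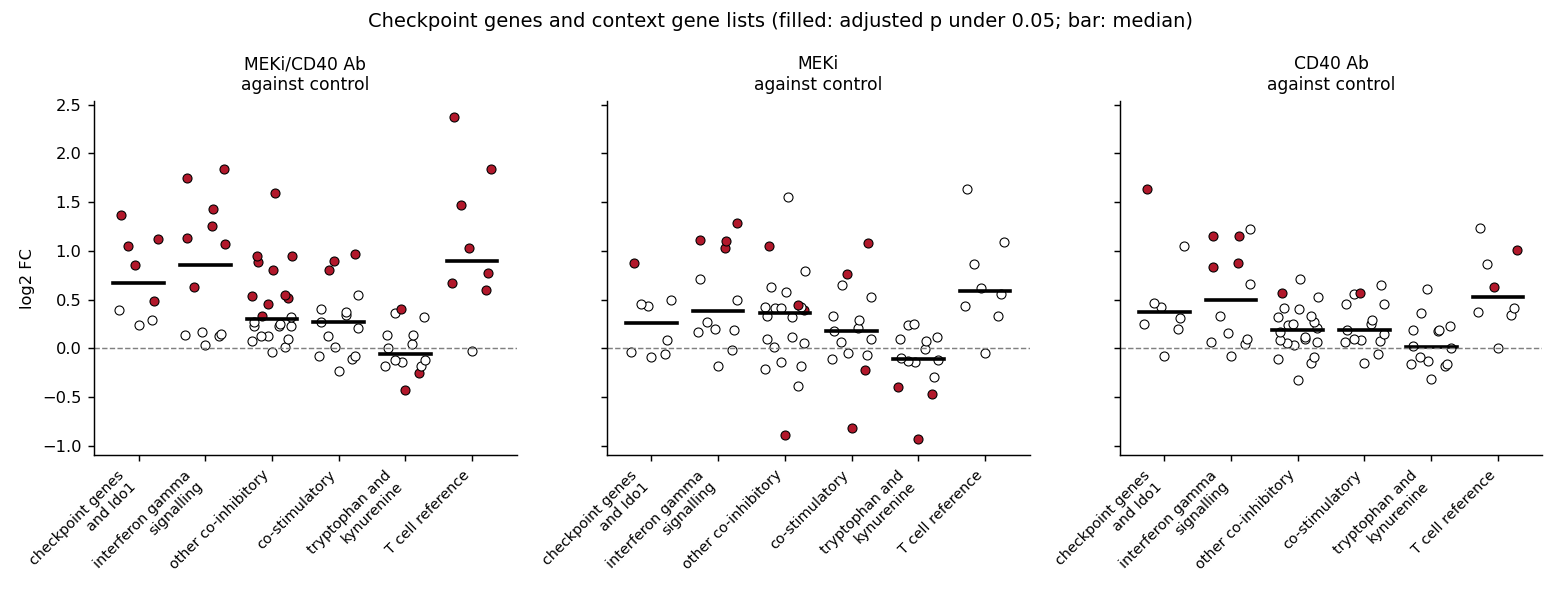
Log2 FC (vertical axis) of the 8 genes and of 5 context gene lists in the 3 comparisons against control. Each point is a gene, filled points passed an adjusted p of 0.05 and bars are medians, which for the 8 genes are 0.67, 0.26 and 0.37 from left to right.

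Macrophage markers were up for 9 of 11 in MEKi/CD40 Ab against control, 1 in MEKi and 5 in CD40 Ab. The shares of all genes called up were 10.3%, 10.7% and 1.01% in these comparisons. Their mean level ranged from 9.05 to 9.36 in control, 9.59 to 9.85 in CD40 Ab, 8.98 to 10.21 in MEKi and 9.68 to 10.35 in MEKi/CD40 Ab tumors. Skeletal muscle markers were up for 9 of 10 in MEKi/CD40 Ab against control, 1 of 10 in MEKi and 0 of 10 in CD40 Ab. Beyond the covariate fits above, the part of these tissues in the receptor and ligand values was not tested.

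For each gene the 3 genes with the most similar pattern over the 15 arrays were listed, among genes at or above the median level, as a description. Pdcd1 was most like Birc2 (Pearson's r = 0.91, Spearman's rho = 0.88), Cd68 (r = 0.91) and Ppp1r12b (r = 0.90). Cd274 was most like Nod1 (r = 0.97, rho = 0.93), Gbp6 (r = 0.97) and Parp14 (r = 0.95). These were the closest matches for any of the 8 genes. Ctla4 was most like Atp8b4, Slc11a1 and Cd37 (r = 0.94, 0.93 and 0.93), and Havcr2 like Spsb1, Cd53 and Cd86 (r = 0.83, 0.80 and 0.80).

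For Lag3 the closest were Zc3hav1, Il12rb1 and Mov10 (r = 0.84, 0.82 and 0.815), and for Pdcd1lg2 Rab19, Gda and Cgas (r = 0.88, 0.83 and 0.83). Cd276 was most like Dusp3, Csrp1 and Nkap (r = 0.85, 0.84 and 0.81), and Ido1 like Acot8, Nudt13 and Mlkl (r = 0.90, 0.85 and 0.84). All arrays share a normalization and the group differences, which enter these coefficients.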

How the data were processed

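Whole-tumor RNA was labelled with a 3' in vitro transcription kit and hybridized to Affymetrix mouse arrays, 1 tumor per array. The authors ran RMA and deposited its output, a log2 value for each probe set (background correction, quantile normalization, summarization). The RMA version is not given in the sources used here. Of 45101 probe sets, 64 Affymetrix controls were left out and 45037 tested. GEO's platform annotation gave 1 symbol for 34945, several for 932 and none for 9160. The 15 sample columns were all matched, and array medians lay between 5.16 and 5.24.

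Each comparison was a two-sided limma fit (version 3.58.1, R 4.3.3, empirical Bayes) to the arrays of its 2 groups. P-values were adjusted by Benjamini-Hochberg across the 45037 probe sets and called below 0.05. The interaction and the fits with covariates used all 15 arrays. Levels relative to T cell genes were compared by exact permutation tests in SciPy 1.17.1. The fits were first tested on simulated data. Each array is a separate mouse, whereas the labels do not say that equal replicate numbers mark a pair, and the number of arrays limits precision.

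The genes named were all listed members in every comparison, the 3 most similar genes of each, and of each context list up to 3 with the smallest p in MEKi/CD40 Ab against control, others being added after their values were seen. The genes and 16 context lists (161 of 177 genes measured) were chosen with earlier results of these data known. Alternatives changed the fit, scaling, probe set rule, threshold, covariates, block and arrays. Promoter windows came from RefSeq (GRCm38.p6).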

Additional observations from a re-analysis of the deposited data

Results flagged for a closer look

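Pdcd1 in control replicate 3, at 4.66, stood apart from the other 3 controls, which lay between 4.92 and 4.96. The gap to the nearest control was 0.867 of the range of the group, above Dixon's critical value for 4 samples. It was 1 such array in 24 groups of 4 examined, and chance gives about 1 in 20. Without it the log2 FC of Pdcd1 in MEKi/CD40 Ab against control was 0.98 (adjusted p = 0.0271).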

How the results depend on the processing

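The counts of called genes moved with the settings. In MEKi/CD40 Ab against control, 5 became 3 in the fit of all 15 arrays, with a log2 FC of at least 1 and among animal numbers under 10000, 2 at an adjusted p under 0.01 and with the animal number series as covariate, 0 with the muscle and skin covariates, and 2 to 5 when each array was left out. In MEKi against control, 1 became 0 with array weights, an adjusted p under 0.01, a log2 FC of at least 1, the replicate block, the series covariate and the muscle and skin covariates, and 0 to 2 with an array left out. In CD40 Ab against control, 1 became 0 in the fit of all 15 arrays, with an intensity trend and a robust prior together, at an adjusted p under 0.01 and with the series or muscle and skin covariates. It became 2 with array weights, median centring or per gene, 3 without dim probe sets (which leaves out Pdcd1, Ctla4 and Lag3), and 0 to 1 with an array left out. MEKi/CD40 Ab against MEKi had 1 in place of 0 in the fit of all 15 arrays. Against CD40 Ab it had 1 in that fit and with the series covariate, and 0 to 1 with an array left out, as had the interaction. The labels do not say whether equal replicate numbers mark a pair. Deviations of same-numbered arrays correlated between -0.278 and 0.184, which cannot exclude a pairing. The replicate block gave 4 in place of 5 called in MEKi/CD40 Ab against control (Havcr2 lost) and Cd274 at 0.95 (adjusted p = 0.119) in MEKi against control, and changed no other call of the 8 genes.

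Values that changed sign had not passed in either setting. With the muscle and skin covariates these were Pdcd1 at 0.074 and Ido1 at -0.017 in MEKi against control, Ctla4 at -0.78, Havcr2 at -0.63 and Cd276 at -0.067 against MEKi, Pdcd1lg2 at -0.12, Ctla4 at -0.23, Lag3 at -0.030, Havcr2 at -0.26 and Ido1 at 0.40 against CD40 Ab, and Pdcd1lg2 at -0.080 and Ido1 at 0.41 in the interaction. With the series covariate they were Havcr2 at -0.43 and Cd276 at -0.070 against MEKi, Havcr2 at -0.22 against CD40 Ab and Cd276 at -0.042 in the interaction. Against CD40 Ab, Havcr2 was at -0.40 among numbers under 10000, at -0.0125 (Lag3 at -0.0025) after median centring and at -0.024 after further quantile normalization. The Ctla4 interaction was 0.19 with array weights and 0.02 with the block. The cause was not tested. Leaving out each array gave, in MEKi against control, -0.19 to 0.14 for Pdcd1, -0.28 to 0.20 for Pdcd1lg2, -0.16 to 0.0375 for Lag3 and -0.01 to 1.22 for Ido1. Against MEKi it gave -0.29 to 0.28 for Havcr2 and -0.10 to 1.13 for Ido1. Against CD40 Ab it gave -0.0225 to 0.19 for Pdcd1lg2, -0.053 to 0.093 for Lag3 and -0.16 to 0.23 for Havcr2. In the interaction it gave -0.12 to 0.36 for Pdcd1lg2, -0.26 to 0.30 for Ctla4 and -0.0025 to 0.20 for Lag3. Relative to T cell genes it gave -0.21 to 0.034 for Pdcd1 in MEKi/CD40 Ab against control, -0.35 to 0.069 for Havcr2 in CD40 Ab against control, -0.16 to 0.073 for Ctla4 against CD40 Ab, and -0.12 to 0.12 for Ctla4 and -0.32 to 0.18 for Lag3 against MEKi. With the median of the reference genes the last 2 were 0.077 and 0.056. The exact tests could hardly pass at these array numbers, so their p-values say nothing about stability. All other values kept their sign.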

Other observations

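Of 14 measured transcription factors of activated and exhausted T cells, 3 rose in MEKi/CD40 Ab against control and 11 did not pass, with a median log2 FC of 0.17, where all genes had -0.04. The share of all genes called up was 10.3%. The 3 that rose were Ikzf2, encoding Helios (0.64 ± 0.14, adjusted p = 0.0180), Batf (0.51 ± 0.13, adjusted p = 0.0349) and Prdm1, encoding Blimp-1 (0.47 ± 0.13, adjusted p = 0.0375). Tox, known for its part in T cell exhaustion, had a value of 0.55 (adjusted p = 0.0854), the T-bet gene Tbx21 1.13 (adjusted p = 0.0568) and Eomes 0.01 (adjusted p = 0.970).

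Of the T cell subset markers, Cd8b1 (2.38 ± 0.25, adjusted p = 0.000524) and Cd8a rose in MEKi/CD40 Ab against control and the other 3 did not pass. Of 4 NK markers Nkg7, which cytotoxic T cells also express, rose (2.57 ± 0.30, adjusted p = 0.000781). Of 9 dendritic cell markers Itgax rose (0.91 ± 0.16, adjusted p = 0.00502). None of 5 B cell markers passed. Of 8 epithelial markers 2 rose, of 8 fibroblast markers 3, of 6 endothelial markers 1 and of 11 skin markers none, 1 of the latter falling. Of all genes, 10.3% were called up and 8.72% down in that comparison. In MEKi against control 7 of 8 fibroblast and 8 of 11 skin markers rose, where 10.7% of all genes were called up.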
